A study of Mus musculus with 2 samples.

Results

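The 4 nuclear factor I genes Nfia, Nfib, Nfic and Nfix were described by the GATA4 peaks at and around them in mouse skeletal muscle myoblasts. A peak was taken as belonging to a gene's window when its centre lay in the RefSeq gene span (GRCm38) or within 50 kb of it. The peaks were thus chosen by position, and the genes were chosen with earlier results of these data known. The windows held 26 peaks of the 17539 in the deposited list. Peaks came from chromatin immunoprecipitation sequencing (ChIP-seq), in which DNA bound by a protein is pulled down with an antibody and sequenced. Satellite cell-derived myoblasts, the proliferating precursors of skeletal muscle fibres, came from mice of STOCK Myf5tm1Pas/J, so both libraries share a stock with a targeted Myf5 allele. They were grown on collagen in Ham's/F10 medium with 20% fetal bovine serum and basic fibroblast growth factor at 20 ng/ml. The GATA4 library was precipitated with a mixture of 3 anti-GATA4 antibodies and the control library with a mixture of IgG, with 1 library each and no replicate. The peak list is that of the GATA4 library, and no values of the IgG library were analysed here, so no background measured in IgG stands beside the peaks. Read depth is unknown, age of the animals is not given in the labels, and a peak list cannot be checked for markers of the labelled cell type.

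Nuclear factor I (NFI) proteins are transcription factors that bind a palindrome with the arms TTGGC and GCCAA, 5 bases apart, or one arm of it, as homodimers or heterodimers. In skeletal muscle Nfix is best known for the switch from the embryonic to the fetal myogenic programme, in which it activates fetal genes such as the muscle creatine kinase gene Ckm and represses slow myosin. Nfia is known in neural and glial development and in brown fat, Nfib in lung and brain development, and Nfic in tooth root formation. GATA4 is a zinc finger factor that binds GATA sequences and is best known from heart, gut and gonad.

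None of the 6 promoters that RefSeq's promoter table (GRCm38.p6) lists for Nfia, Nfic and Nfix overlapped a GATA4 peak. Over all genes, 6.10% of the 32851 promoters listed did. Each listed promoter runs from 250 bases before a transcription start to 50 bases from it on. None of the 6 starts was the 5′ end of its gene span, though 19827 of the 32851 listed starts lie at a gene end. The Nfia start was 97581943 (span from 97578066) and the Nfic start 81427173 (span to 81431919). The Nfix starts reached 84780082 (span to 84801238). Sequence at the 5′ ends of these spans was not searched. For Nfib there was no entry, so 3 of the 4 genes matched. The listed promoter nearest to a peak was that of Nfic, at 1.94 kb from the peak's edge. The listed Nfia promoter lay 19.3 kb from its nearest peak, and the 4 Nfix promoters lay 41.3, 41.8, 44.2 and 48.5 kb from theirs. A listed promoter of each gene is shown to give the sequence at listed starts that no peak reached. On either strand, capitals mark the NFI arm TTGGC and GATA motifs (GATAA or GATAG with an A or a T before it). The promoters shown lie at chr4:97581693-97581992 on the plus strand, chr10:81427124-81427423 on the minus strand and chr8:84772826-84773125 on the minus strand. Each is written 5′ to 3′ along the gene.
Nfia: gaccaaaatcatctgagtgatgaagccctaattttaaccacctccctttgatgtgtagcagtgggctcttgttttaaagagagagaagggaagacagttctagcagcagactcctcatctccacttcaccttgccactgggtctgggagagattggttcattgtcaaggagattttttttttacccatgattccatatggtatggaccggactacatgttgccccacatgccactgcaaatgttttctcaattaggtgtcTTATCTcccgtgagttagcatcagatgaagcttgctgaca
Nfic: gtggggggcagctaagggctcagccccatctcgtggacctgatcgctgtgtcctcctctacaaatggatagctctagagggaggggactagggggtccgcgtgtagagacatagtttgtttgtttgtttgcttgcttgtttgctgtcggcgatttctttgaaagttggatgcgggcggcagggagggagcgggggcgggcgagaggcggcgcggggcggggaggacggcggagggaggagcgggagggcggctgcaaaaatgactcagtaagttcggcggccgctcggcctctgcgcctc
Nfix: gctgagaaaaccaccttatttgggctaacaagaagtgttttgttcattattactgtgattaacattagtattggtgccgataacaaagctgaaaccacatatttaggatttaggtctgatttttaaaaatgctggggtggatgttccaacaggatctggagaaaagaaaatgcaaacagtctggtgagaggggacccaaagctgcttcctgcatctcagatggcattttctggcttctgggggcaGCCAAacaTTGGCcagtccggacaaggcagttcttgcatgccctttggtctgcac

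The listed Nfia promoter held 1 GATA match, TTATCT at base 261, which is AGATAA on the other strand. The listed Nfic promoter and all 4 listed Nfix promoters held none. Of all listed promoters, 29.8% held at least 1 of these motifs. The Nfix promoter shown held both orientations of the NFI arm 3 bases apart, as GCCAA and then TTGGC, which is not the spacing or the order of the full palindrome. The Nfix promoters at chr8:84773361-84773660 and chr8:84775779-84776078 held 1 arm each, and the remaining Nfix promoter, that of Nfia and that of Nfic held none. An arm was present in 46.7% of all listed promoters and the full palindrome in 0.0365%, and no promoter of the 3 genes held the full one. The sequence under the peaks themselves was not used here.

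All 4 genes had at least 1 peak, but the peaks were divided very unequally among them. Nfia had 19 peaks, Nfib and Nfic had 3 each and Nfix had 1. The genes were chosen with earlier results of these data known, so the counts are a description without a test. Of all 21887 protein coding genes, 56.8% had a peak in the same window and 33.3% had 2 or more. Nfia alone held 73.1% of the family's peaks. Inside the gene spans lay 23 of the 26 peaks, or 88.5%, and 3 lay outside. Of all 13933 peaks in or within 50 kb of a protein coding gene, 64.7% lay inside one. Each of the 4 genes had at least 1 inside, as did 21.0% of protein coding genes. Neither share is matched for gene length, and the span takes up 541 of the 641 kb of the Nfia window. Inside lay 18 of 19 peaks at Nfia, 2 of 3 at Nfib, 2 of 3 at Nfic and 1 of 1 at Nfix. For 25 of the 26 peaks the NFI gene was the nearest protein coding gene. This count was largely set in advance. The 23 inside peaks are at distance 0 from their gene, and the Nfia and Nfib windows hold 0 other protein coding genes.

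**Figure D1:**
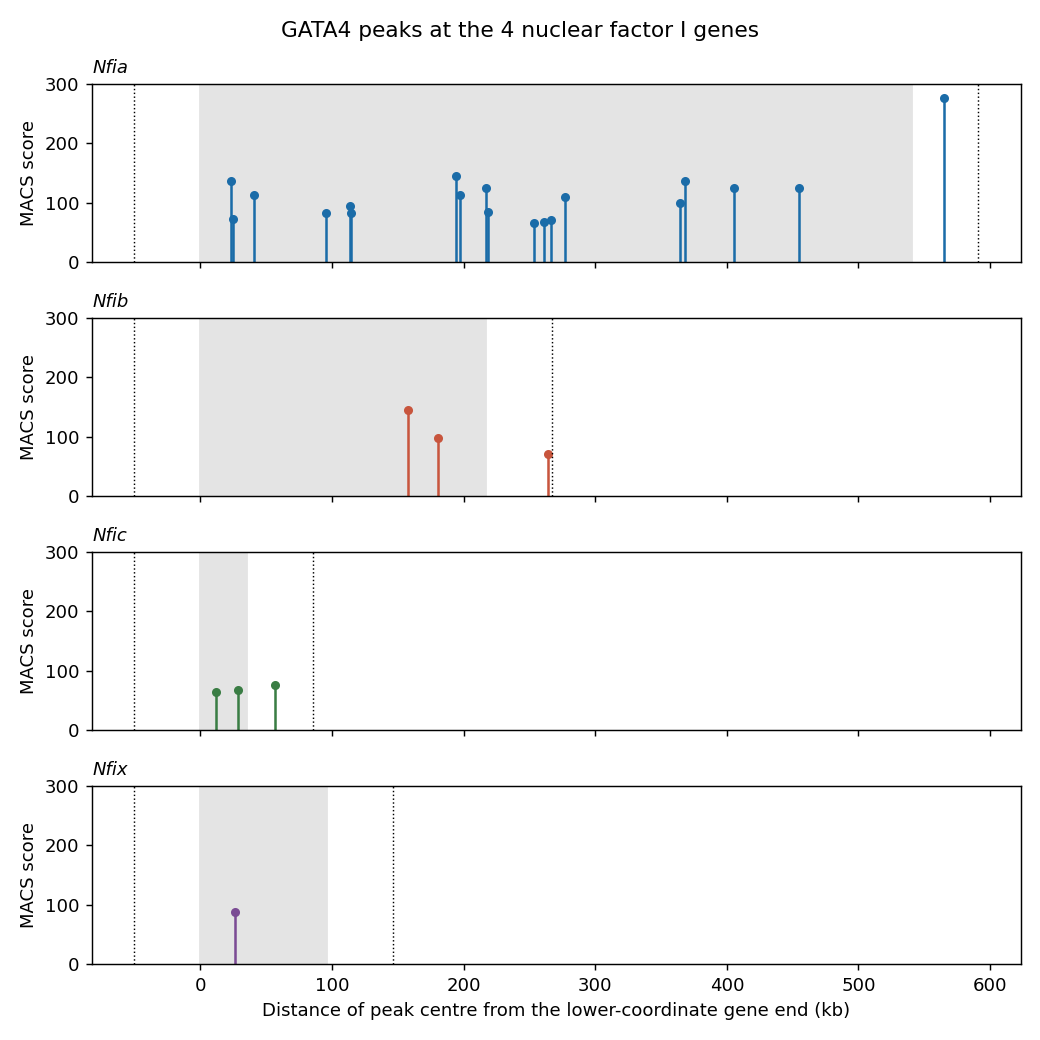
GATA4 peaks in the windows of Nfia, Nfib, Nfic and Nfix, with the distance of the peak centre from the lower-coordinate gene end (kb) on the x axis and the authors' MACS score on the y axis. Grey marks the gene span and dotted lines the limits 50 kb outside it; 18 of the 19 Nfia peaks lie inside the gene, while the highest one, with a score of 276, lies beyond its higher-coordinate end.

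The number at Nfia lay far above that of most genes of its length, while Nfib, Nfic and Nfix lay closer to theirs. Nfia spans 541 kb at chromosome 4, 97578066 to 98118876, on the plus strand. Counting Nfia, 10 protein coding genes had 19 or more peaks in this window, or 0.0457% of all. Of 322 other protein coding genes within 1.5 times its length, 4 had as many or more, or 1.24%, and their median was 3 peaks. Nfib spans 217 kb at chromosome 4, 82290173 to 82506751. Among 1039 other genes of like length the median was 2 peaks, and 44.8% had 3 or more. Nfic spans 35.7 kb at chromosome 10, 81396191 to 81431919, on the minus strand. Among 4342 other genes of like length the median was 1 peak, and 19.9% had 3 or more. Nfix spans 96.5 kb at chromosome 8, 84704712 to 84801238, on the minus strand. Among 2367 other genes of like length the median was 1 peak, and 71.9% had at least 1.

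**Figure D2:**
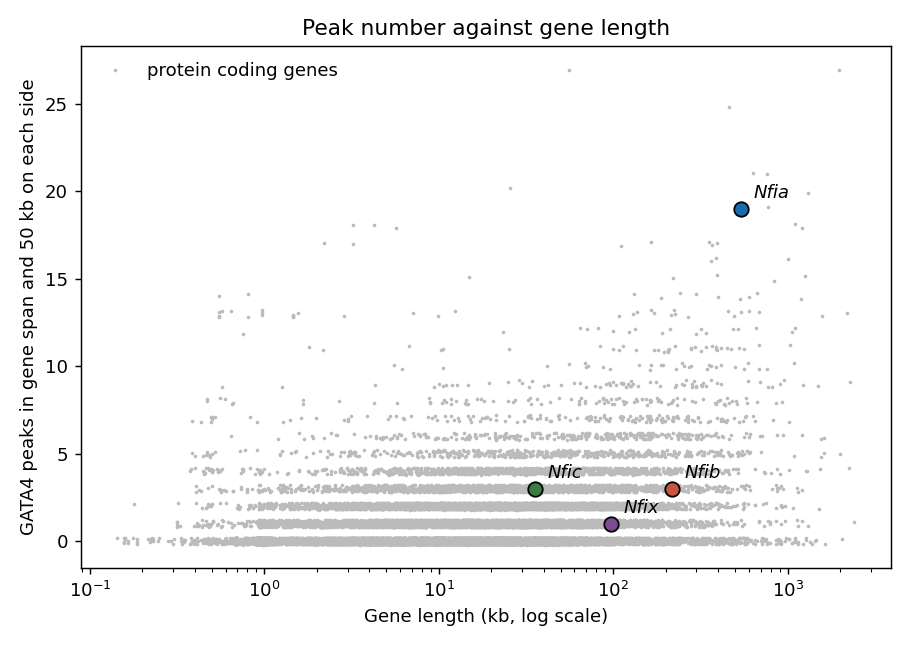
Number of GATA4 peaks in the gene span and 50 kb on each side (y axis) against gene length (kb, log scale on the x axis) for protein coding genes (grey points, shifted slightly up or down at random so that they can be seen) and the 4 NFI genes (coloured). Nfia, with 19 peaks, stands above most genes of its length, while Nfib, Nfic and Nfix, with 3, 3 and 1, lie among the bulk.

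Peak density was highest by value in the windows of Nfia and Nfic. The Nfia window held 29.6 peaks per Mb (95% Poisson interval 17.9 to 46.3, counting error only), against 6.83 per Mb over chromosome 4. The Nfic window held 22.1 per Mb (4.56 to 64.6) against 12.8 over chromosome 10. The Nfib window, on the same chromosome as Nfia, held 9.48 per Mb (1.95 to 27.7). The Nfix window held 5.09 per Mb (0.129 to 28.4) against 5.98 over chromosome 8. The intervals describe counting error in windows of genes chosen with earlier results of these data known, so they are no test against the chromosome. With 3, 3 and 1 peaks those of Nfib, Nfic and Nfix are wide, and no order among the 4 densities can be read.

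Within Nfia the peaks ran from 23.7 kb after the lower-coordinate end, the side of its transcription start, to 86.2 kb before the higher-coordinate end. Cut into 3 equal stretches of 180 kb along the direction of transcription, the gene held 6, 8 and 4 peaks. The longest stretch between neighbouring centres was 87.2 kb, and the shortest was 0.778 kb. Scores of the 18 inside peaks ran from 66.2 to 144 with a median of 105, close to the median of 99.3 over the list. The MACS score is the authors' own value for each peak and is set here only against other peaks of the same list.

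Many Nfia peaks came as close pairs. Of the 19, 10 had another peak centre within 5 kb, or 52.6%, against 25.4% of all peaks, and they formed 5 pairs. The first pair lay near the start of the gene, at 97601297 to 97602289 (score 136) and 97602564 to 97603024 (71.6), with centres 1.00 kb apart. The closest pair lay at 97691318 to 97691973 (93.4) and 97692107 to 97692739 (82.1). In the middle of the gene 97771978 to 97772851 scored 144, the highest inside the gene, and its partner at 97775022 to 97775772 scored 113. In these pairs the member nearer to the start scored higher. The next pair, at 97794814 to 97795269 (124) and 97796622 to 97797180 (84.1), had the same order. The last pair had the reverse order, with 98.7 at 97941914 to 97942690 and 136 at 97945465 to 97946448. The 5-kb limit was chosen after the positions were seen, and pairing of peaks inside one gene shares that gene's density.

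The other Nfia peaks were singly placed or loosely grouped. Nearest to the start, 97618547 to 97619318 scored 112 and 97673342 to 97673956 scored 83.2. A group of 4 followed in the middle of the gene, at 97831630 to 97832336 (66.2), 97839090 to 97839757 (68.1), 97844377 to 97845000 (70.3) and 97854916 to 97855332 (110). The first 3 of these were the lowest scores inside the gene. Toward the 3′ end, 97983502 to 97983991 scored 124 with a width of 490 bp. The peak at 98032124 to 98033328 also scored 124 and was 1205 bp wide, the widest at Nfia.

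The highest-scoring peak of the family lay outside the genes. It spanned 98142736 to 98143346 on chromosome 4, 24.2 kb past the 3′ end of Nfia, and scored 276, which ranked 530 in the list (percentile 97.0). It was 611 bp wide, narrower than the list's median of 745 bp. No other protein coding gene lay within 50 kb of Nfia, and Nfia was the nearest protein coding gene to this peak. Distance alone does not assign a peak to a gene. It lay in no annotated noncoding gene, between the lncRNA gene Gm34784 and the pseudogene Gm12691.

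Several Nfia peaks also lay in lncRNA genes annotated within the same span. Of the 18 inside peaks, 6 had their centre in a lncRNA gene, or 33.3%. Over all 9019 peaks inside protein coding genes the share was 5.74%. Gm38709, Gm19417 and Gm40208 held 2 peaks each, and Gm34218 and E130114P18Rik, which reaches over the start of Nfia, held none. The 5 lncRNA genes cover 14.3% of the Nfia span, and what they do is not known from these data. At Nfib, 1 inside peak lay in the noncoding gene 2310067E19Rik. Exons and introns were not analysed here.

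At Nfib both inside peaks lay toward the higher-coordinate end of the gene. The peak at 82447160 to 82448424 scored 145 (percentile 77.6) and, at 1265 bp, was the widest of the family. The second, at 82470323 to 82470840, scored 97.0 and was 518 bp wide. These lay 59.0 and 36.2 kb from the higher-coordinate end, and the first peak centre lay 158 kb from the other end. The peak outside, at 82553671 to 82554512, scored 71.6 and lay 47.3 kb from the gene, just inside the limit of the window. The nearest peak beyond that limit was 104 kb from Nfib with a score of 122. Nfib had no other protein coding gene within 50 kb.

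The 3 Nfic peaks had scores in the lowest part of the list. Their scores were 64.6 at 81407459 to 81408202, 67.8 at 81424517 to 81425189 and 76.2 at 81452415 to 81453156, at percentiles 7.73, 12.2 and 23.8. The lower quartile of the list is 77.7, so all 3 fell below it. The second peak was centred 2.32 kb downstream of the listed Nfic start, the shortest distance to a start of the own gene among the 23 peaks of Nfia, Nfic and Nfix. The peak outside lay 20.9 kb from Nfic but 6.44 kb from Celf5, which encodes an RNA-binding protein of the CELF family, so it is closer to that gene. The nearest peak beyond the limit of the window lay 75.4 kb from Nfic, scored 124 and was closest to Cactin.

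Nfix, the NFI gene best known in muscle, had 1 peak. It lay inside the gene at 84730582 to 84731559, 41.8 kb downstream of the nearest listed start and 26.4 kb from the 3′ end. It scored 88.3 (percentile 38.3) and was 978 bp wide (width percentile 81.7). The nearest peak outside the window was 180 kb from the higher-coordinate end of the gene, at 84980973 to 84981472, with a score of 138. That peak lay 2.47 kb from Junb, which encodes an AP-1 subunit known to act upstream of Nfix in fetal myoblasts.

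Peaks near the ends of the NFI genes were about as frequent as at other genes. Only Nfic had a peak centre less than 10 kb from an end of the gene, at 7.07 kb, which is 1 of 4 genes or 25.0%, against 26.2% of protein coding genes. Of the 26 peaks, 24 were over 20 kb from both ends of their own gene. Over 20 kb from the ends of every protein coding gene lay 23, or 88.5%, against 55.1% of all peaks. All 19 Nfia peaks are among these 23, and they lie in or near a long gene with no protein coding neighbour. None of the 26 lay within 1 kb of any listed transcription start, against 10.3% of all peaks. The closest was the first Nfic peak, 1.74 kb from a listed start of another gene. The windows of Nfic and Nfix each hold 8 other protein coding genes. Of these 16 neighbours, none had a peak centre at 1 kb or less from an end, against 9.47% of protein coding genes, and 1, Celf5, had one within 10 kb. The neighbours of Nfix include Ier2, Nacc1, Trmt1, Lyl1 and Dand5, and those of Nfic include Hmg20b, Mfsd12, Fzr1, Dohh and Smim24.

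Scores and widths of the 26 peaks lay within the usual range of the list. Their median score was 95.2, with quartiles of 72.8 and 124, against 99.3 (77.7 and 138) over all peaks. Above the list's median lay 11 of the 26, or 42.3%. These were 10 at Nfia and 1 at Nfib. The upper quartile of the list was reached by 3 peaks, with scores of 276, 145 and 144. The median width was 690 bp against 745 bp, and the range was 417 to 1265 bp.

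Some members carried a score that many other peaks carried too. This held for 6 of the 26, or 23.1%, against 25.7% of all peaks with a score shared by 50 or more. These 6 were the narrowest of the family, 417 to 559 bp wide, and the next was 611 bp. At Nfia they were the peaks with deposited scores of 71.57, 84.08, 110.42 and, at 2 places, 124.17, and at Nfib the one with 97.04. Between 487 and 710 peaks of the list had each of these values. In the whole list 13 score values made up the 4514 peaks with a shared score. Among peaks narrower than 600 bp, 96.5% had one of these values, and among wider peaks 0.209% did. The formula behind the score is not stated in the labels or the file header, and what the repeated values stand for was not tested.

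**Figure D3:**
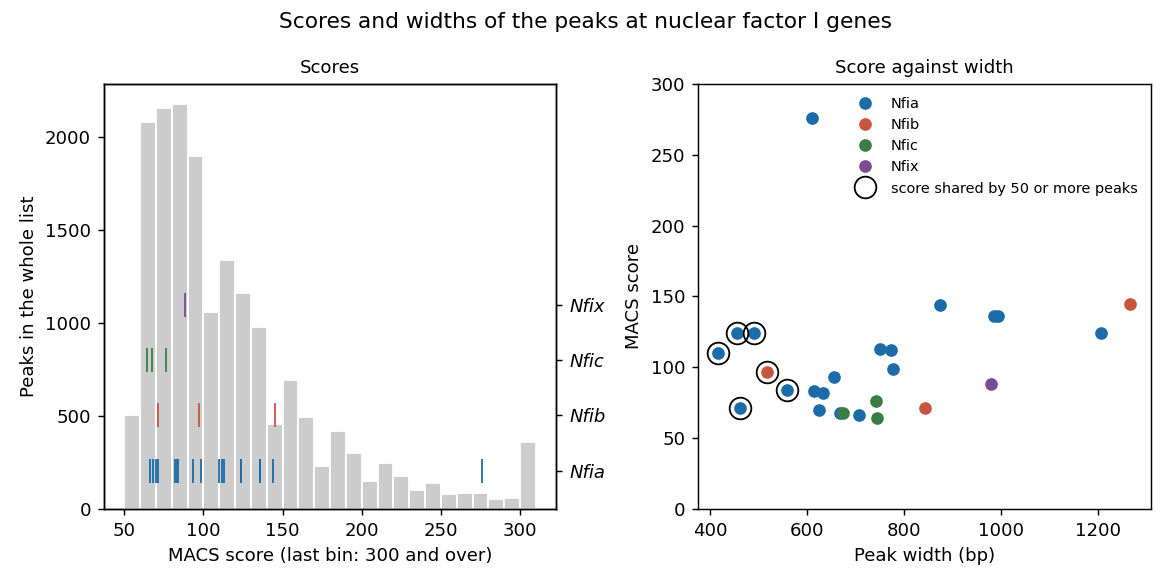
Left, number of peaks of the whole list per MACS score bin of 10 (bars, with scores of 300 and over in the last bin) and the scores of the NFI peaks (ticks, 1 row per gene). Right, score against width in bp for the 26 NFI peaks, with black rings around the 6 whose score is shared by 50 or more peaks; all 6 are under 600 bp wide, and the 3 Nfic peaks are near the lower edge.

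By value, genes linked to NFI function had peaks about as often as protein coding genes of all lengths. The comparison was not matched for length, and the linked genes run from 1.84 kb (Junb) to 570 kb (Sox6). Of 16 such genes, 10 had a peak in the span or within 50 kb, or 62.5% (exact Clopper-Pearson 95% interval 35.4% to 84.8%), against 56.8% of protein coding genes. The interval is wide and treats the genes as random draws, though they are a chosen list. Among peaks above the median score 4 of the 16 had one, against 36.8% of protein coding genes. The median was 1 peak in the list and 1 over all protein coding genes. Upstream of Nfix, Pax7, the satellite cell factor, had 2 peaks with a highest score of 97.0, Junb had 1 with 138, and Rhoa had none. Of other regulators linked to Nfix, Sox6, a repressor of slow fibre genes, had 3 peaks inside the gene with a highest score of 110. Mef2c, a MADS box factor, had 1 inside the gene with 91.3. Nfatc4, which is known to be repressed by Nfix, and Prkcq, the gene of protein kinase C theta, had none. Of the highest peaks at the linked genes, those of Pax7, Junb, Sox6, Mstn and Ucp1 are narrower than 600 bp. Among such peaks of the list, 96.5% carry a score shared by 50 or more.

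Of 4 muscle genes downstream of Nfix, 3 had a peak in the window, against 56.8% of protein coding genes. Ckm had none. Eno3, encoding the muscle enolase, had 3 with a highest score of 67.0, and that peak was closer to Spag7. Myh7, the slow myosin heavy chain, had 2 with a highest score of 87.7 at 2.94 kb. Mstn, encoding myostatin, had 1 with 71.6 at 8.31 kb from the gene. All of these scores lie below the list's median of 99.3.

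Among genes tied to NFI factors in other tissues, Sp7, the osteoblast factor osterix, had 8 peaks in its window. The highest, at 102377535 to 102378494 on chromosome 15, scored 178 at 11.0 kb, and none lay inside the gene. Pparg, the adipogenic nuclear receptor, had 7, of which 4 lay inside. Its highest scored 226 but lay 44.3 kb from Pparg and was closer to Syn2. Ucp1, the uncoupling protein of brown fat, had 2, the higher with 84.1 and closer to Elmod2. Cebpa and Ebf2, both adipogenic transcription factor genes, had none. Such windows can hold other genes as well, so their peaks are not assigned to the named gene by distance alone.

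Set beside 3 other transcription factor families in the same windows, NFI peaks were neither the densest nor the sparsest. The 4 NFI windows held 20.2 peaks per Mb (95% Poisson interval 13.2 to 29.5). The 4 TEAD genes, encoding partners of YAP and TAZ, held 15 peaks or 20.3 per Mb (11.4 to 33.5). The 4 MEF2 genes held 10 or 13.3 per Mb (6.37 to 24.4). Runx1, Runx2, Runx3 and Cbfb held 28 or 26.7 per Mb (17.8 to 38.6). The density over the chromosomes as a whole was 6.60 per Mb. The NFI density rests on Nfia, and without it the other 3 windows held 7 peaks or 10.8 per Mb. Uneven division among members was found in each family. Tead1 had 11 of the TEAD peaks, Mef2a had 6 of the MEF2 peaks, and Runx1 and Runx2 had 13 and 11 of the Runx peaks. These were among the longer genes of their families, as Nfia is of the NFI genes. Of genes of like length, 1.24% had at least as many peaks as Nfia. This share was 2.75% for Tead1, 10.7% for Mef2a, 1.0% for Runx1 and 4.63% for Runx2. Mef2c, longer than Mef2a, had 1 peak. No test was made between families, since the genes were chosen with earlier results of these data known and there is 1 library.

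**Figure D4:**
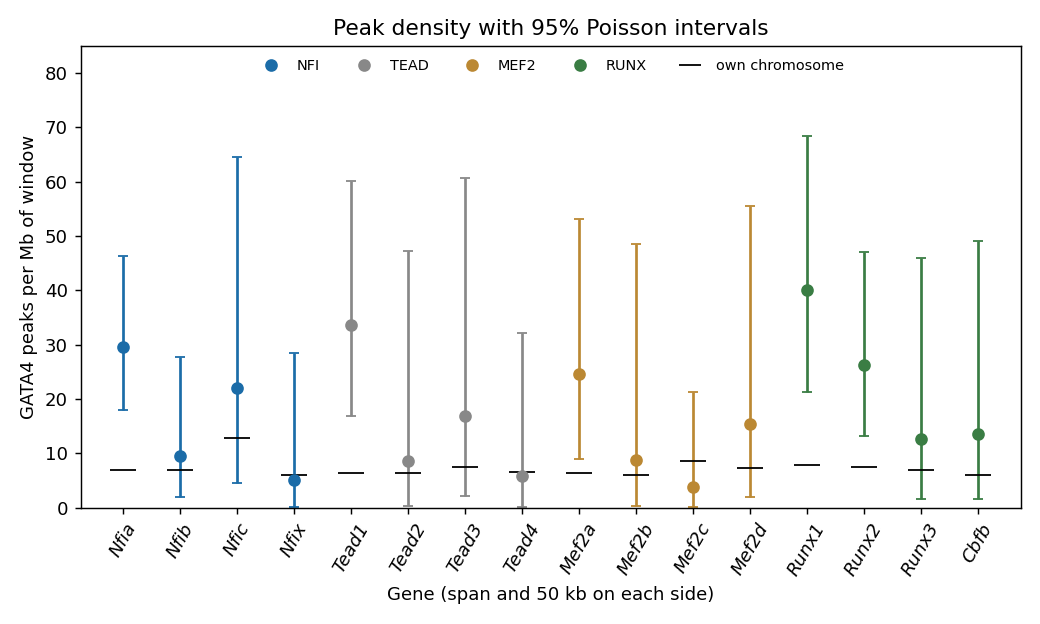
GATA4 peaks per Mb of window (gene span and 50 kb on each side) for the genes of the NFI, TEAD, MEF2 and Runx families, with 95% Poisson intervals for counting error as bars and the density of each gene's own chromosome as a black dash. Nfia has the highest value of the NFI genes, at 29.6 per Mb, and Runx1 the highest of all genes shown, at 40.0. The intervals are no test, since the genes were chosen with earlier results of these data known.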

How the data were processed

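Cells were fixed in 1% formaldehyde, the chromatin was broken into pieces of 200 to 500 bp, and 150-bp paired reads were sequenced, per the labels' protocols. CASAVA 1.8 and Bowtie were used with build GRCm38 (mm10), per the submitters' processing notes. Peaks were called with MACS in Galaxy, per the file header. The authors deposited a peak list with a MACS score per peak. Neither the labels nor the file header give its formula, the threshold, the duplicate handling or the control used. Read depth is unknown.

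Starts were converted to 1-based positions. Peaks were assigned by their centre to the span of RefSeq genes (GRCm38.p6, 21887 protein coding genes on chromosomes with peaks) and 50 kb on each side. Chromosome density was taken over the annotated length beyond the first 3 Mb. Intervals are exact and cover counting error only. Nothing was tested, because there is 1 library per antibody, peaks were chosen by position and the genes were not chosen blind to these data. The counting was checked on simulated peaks. All 4 members, all their peaks, the neighbouring genes in their windows, 16 NFI-linked genes and 3 families were named by a rule. The members and lists were chosen with earlier results of these data known. The planned comparison of NFI protein sequences and the motif search in peaks were not run, as protein and genome sequences were not used here. Python 3.11.15, pandas 2.3.3 and SciPy 1.17.1 were used.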

Additional observations from a re-analysis of the deposited data

How the results depend on the processing

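The number of NFI peaks, 26, was 23 to 27 with the gene span alone, with 10 or 100 kb on each side, by any overlap or by the nearest protein coding gene. It was 11 among peaks above the median score, and 7 without Nfia, a choice made after seeing the data. The density of 20.2 per Mb was 8.53 among peaks above the median score and 10.8 without Nfia. That score filter keeps 8769 of all 17539 peaks, so 8.53 cannot be set against the 6.60 per Mb of all peaks. With the other windows the density was 16.0 to 25.9. Among peaks above the median score no NFI gene kept a peak within 10 kb of an end (0 of 4). The share of all protein coding genes was not computed for that setting. Within 1 kb of an end the count was also 0 of 4, against 9.47% of protein coding genes. NFI-linked genes with a peak numbered 4 of 16 among peaks above the median score, against 10 of 16 with all peaks. Over all protein coding genes the share went from 56.8% to 36.8%. The median score of 95.2 was 97.0 with the gene span, within 100 kb and by the nearest gene, and 76.2 without Nfia. Also chosen after seeing the data, the number of Nfia peaks with another close by was 8 within 3 kb and 13 within 10 kb, and the share of genes of like length with as many peaks as Nfia was 1.43% and 0.833% for lengths within 1.2 and 2 times. The cause of these changes was not tested, apart from the fewer peaks or genes that each choice leaves. No paired analysis was possible because there is 1 library per antibody. No error between libraries can be given.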
